A study of Mus musculus with 2 samples.

Results

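The mitochondrial respiratory chain and ATP synthase subunits encoded in the nucleus were compared between whole mouse embryos with maternal and with paternal uniparental disomy of chromosome 18. Members were all probe sets whose platform annotation gave exactly 1 gene symbol starting with Ndufa, Ndufb, Ndufc, Ndufs, Ndufv, Uqcr, Cox4, Cox5, Cox6, Cox7, Cox8 or Atp5, or equal to Sdha, Sdhb, Sdhc, Sdhd or Cyc1. This rule used names only and gave 180 probe sets of 91 genes, out of 34945 probe sets of 18193 genes with a single symbol. A further 10 probe sets that list such a symbol beside another gene were left out. Because the rule goes by name, it also took in 8 genes for assembly factors of complex I (Ndufaf1 to Ndufaf8), which are described apart from the subunits.

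The matUPD18 embryos carried both copies of chromosome 18 from the mother and the patUPD18 embryos both copies from the father. RNA came from whole embryos at 8.5 dpc (days post coitum) in both groups, and no other allele, strain or treatment is given in the labels. There was 1 array per genotype, of the mouse type that the titles call 430, so no test between genotypes was possible and no value below can be set against the spread between embryos. The sources used here do not say how many embryos gave each RNA.

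The respiratory chain sits in the inner mitochondrial membrane. Complex I takes electrons from NADH and complex II from succinate, complex III passes them to cytochrome c, and complex IV hands them to oxygen. Complexes I, III and IV pump protons as they do so, and ATP synthase lets the protons back through its membrane part, Fo, to drive ATP formation in its head, F1. All complexes except complex II also hold subunits encoded by mitochondrial DNA, so their nuclear genes supply only some of the parts. Transcription of the nuclear genes is known to draw on NRF1, on ETS family factors such as GABPA and on YY1.

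Letters of these factors' motifs occurred in the members' promoters more often than in promoters at large. RefSeq promoter windows (GRCm38.p6, from 250 bases before to 50 bases after a gene's start) were found for 74 of the 91 genes, as 79 windows. The palindromic NRF1 motif was in 6 windows (7.59%), against 0.971% of all 32851 windows. The GABPA letters CCGGAAG were in 19 windows (24.1%), against 8.86%, and the YY1 letters AAGATGGCG were in 7 windows (8.86%), against 1.40%. Both strands were searched for these exact letters, so a match can also appear as its reverse complement, and no motifs overlapped in a member's window. The NRF1 motif searched is the first run of capitals in the Atp5k sequence shown next. The members' windows also held more CG dinucleotides, with a median of 20 against 7 in all windows, and the part of base composition in the shares was not tested. A match is a run of letters and not a shown binding site.

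Below are shown the windows that hold both the NRF1 and the GABPA letters (Atp5k and Cox6a1), a window with the GABPA and YY1 letters before the start (at 1 of the 2 starts of Atp5j), and those of the members read furthest lower and furthest higher in matUPD18 (Cox8a and Atp5md). Each runs 5′ to 3′ along the gene's strand from 250 bases before the start to 20 bases after it, with motif letters in capitals, all on the minus strand of GRCm38.p6. They lie at chr5:108434380-108434649 (Atp5k), chr5:115348939-115349208 (Cox6a1), chr16:84834957-84835226 (Atp5j), chr19:7217597-7217866 (Cox8a) and chr19:47090628-47090897 (Atp5md).
Atp5k: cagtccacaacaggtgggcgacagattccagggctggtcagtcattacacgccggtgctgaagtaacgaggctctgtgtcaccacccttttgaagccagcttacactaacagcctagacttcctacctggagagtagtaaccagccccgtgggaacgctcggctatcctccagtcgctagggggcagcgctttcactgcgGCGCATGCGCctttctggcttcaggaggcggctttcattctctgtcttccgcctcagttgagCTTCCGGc
Cox6a1: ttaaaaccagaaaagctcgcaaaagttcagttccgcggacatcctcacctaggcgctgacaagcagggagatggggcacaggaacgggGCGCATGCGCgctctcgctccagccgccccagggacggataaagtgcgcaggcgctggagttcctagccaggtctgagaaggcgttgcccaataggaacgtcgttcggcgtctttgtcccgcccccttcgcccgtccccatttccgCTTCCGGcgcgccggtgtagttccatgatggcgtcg
Atp5j: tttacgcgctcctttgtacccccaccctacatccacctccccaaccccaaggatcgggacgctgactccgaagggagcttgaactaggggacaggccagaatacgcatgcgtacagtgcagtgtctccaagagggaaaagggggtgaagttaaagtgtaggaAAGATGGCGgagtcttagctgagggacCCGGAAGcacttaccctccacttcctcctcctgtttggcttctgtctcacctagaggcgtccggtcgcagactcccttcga
Cox8a: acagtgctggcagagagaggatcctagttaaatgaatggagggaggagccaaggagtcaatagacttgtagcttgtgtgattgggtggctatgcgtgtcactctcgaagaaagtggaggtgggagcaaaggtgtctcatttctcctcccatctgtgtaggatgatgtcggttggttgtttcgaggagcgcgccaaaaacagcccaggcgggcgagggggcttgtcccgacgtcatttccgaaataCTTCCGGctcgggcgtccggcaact
Atp5md: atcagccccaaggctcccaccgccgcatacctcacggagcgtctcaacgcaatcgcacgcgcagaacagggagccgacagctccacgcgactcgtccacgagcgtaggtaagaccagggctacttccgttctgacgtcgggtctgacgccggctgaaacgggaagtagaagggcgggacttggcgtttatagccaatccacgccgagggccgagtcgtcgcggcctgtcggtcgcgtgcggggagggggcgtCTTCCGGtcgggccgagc
Cox8a and Atp5md both hold the GABPA letters, as their reverse complement, within a few bases of the start.

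Most respiratory chain transcripts read a little lower in matUPD18, and few differed by 2-fold. Signals are MAS5 intensities, and measurable means that at least 1 of a probe set's signals lay at or above the 60th percentile of all signals on that array (190.1 in matUPD18 and 184.9 in patUPD18). Of the 180 member probe sets, 152 were measurable, for 83 of the 91 genes. Lower signals in matUPD18 were read by 116 of the 152 (76.3%), against 51.7% of all 16696 measurable probe sets with 1 symbol. The median log2 ratio, matUPD18 over patUPD18, was -0.28 for the members, with quartiles of -0.47 and -0.02, and -0.02 for all probe sets.

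Only 4 member probe sets were at least 2-fold apart. Those of Atp5md and Uqcr10 were higher in matUPD18, which is 2 of 152 where 3.27% of all probe sets passed. Those of Cox8a and Ndufa10 were higher in patUPD18, again 2 of 152, where 1.95% passed. Neither count of members stood far from its background. At 1.5-fold, 7 members were higher in matUPD18 (11.4% of all probe sets passed) and 27 were higher in patUPD18 (8.76% passed).

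With each gene read by its brightest probe set, 65 of 83 genes read lower in matUPD18, against 53.9% of all 10484 measurable genes, and the median log2 ratio was -0.32, against -0.04. At least 2-fold higher in matUPD18 were 2 genes (2.70% of all genes passed), and 1 was that much higher in patUPD18 (1.78% passed). At 1.5-fold, 4 genes were higher in matUPD18 (9.97% of all genes passed) and 14 in patUPD18 (8.74% passed).

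**Figure D1:**
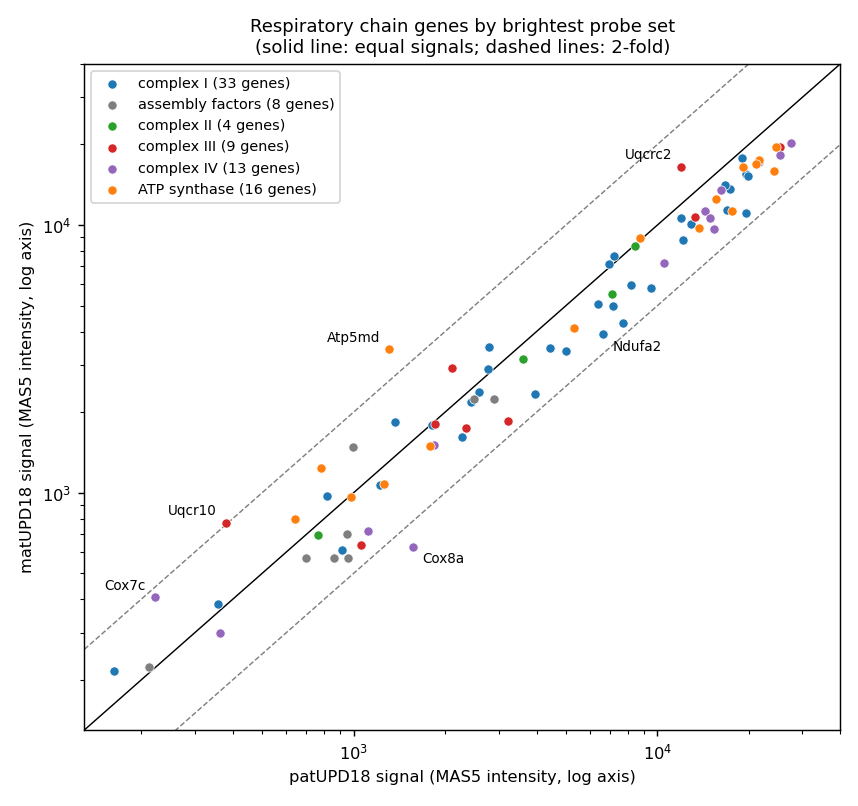
Signal of each measurable respiratory chain gene, read by its brightest probe set, in patUPD18 (horizontal) and matUPD18 (vertical), both as MAS5 intensity on log axes, coloured by complex. The 83 points mostly lie just below the line of equal signals, and only Atp5md, Uqcr10 and Cox8a lie beyond the dashed 2-fold lines. Scaled to the hybridisation controls, most points would lie above the line.

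These directions rest on how the arrays were scaled. The authors' values had each array scaled to the same trimmed mean, and the 9 bacterial and phage hybridisation controls, which are added in equal amount after labelling in this kind of assay, read lower in matUPD18 with a median log2 ratio of -0.50. With the arrays scaled to these controls instead, the median of all measurable probe sets moved to 0.48 and that of the members to 0.22. Only 34 of 152 members then read lower in matUPD18, against 12.1% of all measurable probe sets. This rescaling moves every log2 ratio alike, so the members' median had to stay 0.26 log2 units below that of all probe sets. Under 2 scalings that can change this difference it was -0.17 (quantile normalization) and -0.18 (loess scaling). What follows uses the deposited scaling, so that lower means lower than the average transcript on the array.

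Many members had high signals, where other probe sets also leaned lower. Of the measurable members, 38.8% lay among the brightest 10% of probe sets. There, 52 of 59 members read lower in matUPD18, with a median log2 ratio of -0.36, while 68.6% of the 1611 other probe sets did so, with a median of -0.16. Among the 10% of probe sets next in signal, 17 of 23 members read lower with a median of -0.19, against 50.6% and -0.01 for other probe sets. The lean reached down to medium signals: of 10 members with mean signals between 569 and 795, 8 read lower, with a median of -0.43. It was not seen across the dimmer members. Below 569, probe sets were taken in steps of 10% from the dimmest upwards. Of the members there, 0 of 3, 4 of 7, 2 of 5, 3 of 4 and 4 of 8 read lower. The members' medians in these steps were 0.80, -0.0004, 0.07, -0.15 and 0.08. Across the 152 measurable members the log2 ratio fell with the mean log2 signal (Pearson's r = -0.28, Spearman's rho = -0.28, across probe sets of 2 shared arrays, which are not independent). After loess scaling, which removes the trend with signal, the members' median was -0.19 against -0.02 for all probe sets, and 110 of 152 still read lower.

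**Figure D2:**
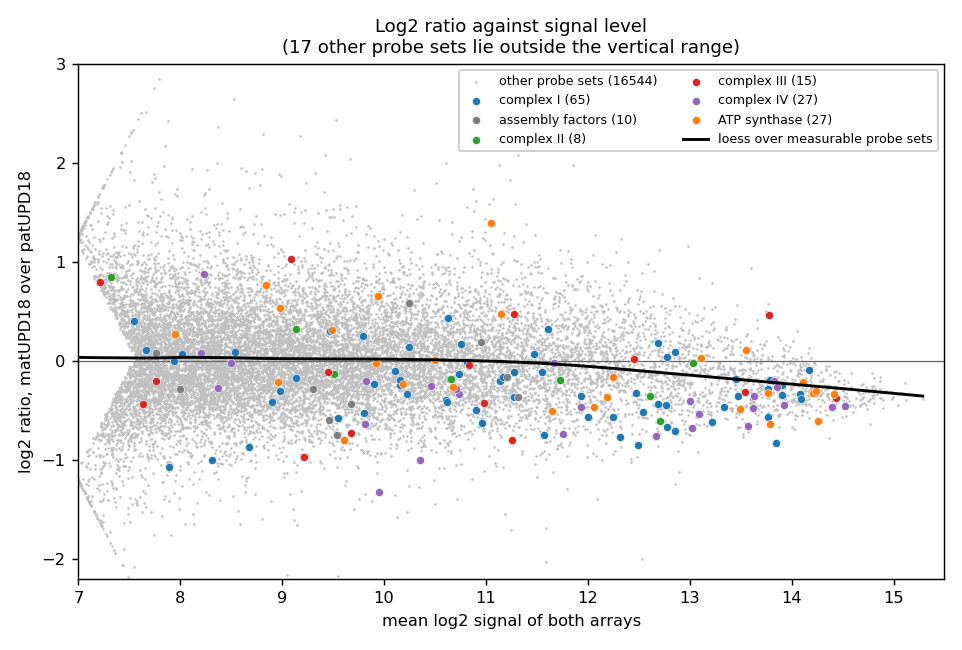
Log2 ratio (matUPD18 over patUPD18, vertical) against mean log2 signal of both arrays (horizontal) for members, coloured by complex, and for all other measurable probe sets in grey. The loess line bends below 0 at high signal, where 59 members lie, with a members' median of -0.36 there. The values use the deposited scaling, and scaling to the hybridisation controls would raise all of them by about 0.50.

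Transcripts of complex I, the NADH dehydrogenase, leaned lower as a whole. Of its 65 measurable probe sets, 51 read lower in matUPD18 and the median log2 ratio was -0.30. Among the core subunits, which bind the flavin, the iron-sulphur clusters and NADH, 4 of 6 genes read lower by their brightest probe sets. Ndufs8, an iron-sulphur subunit, read 5814 in matUPD18 and 9497 in patUPD18, a 1.63-fold difference. All 6 of its probe sets were measurable and all read lower in matUPD18, with log2 ratios from -0.87 to -0.20. Ndufs7, which carries the last iron-sulphur cluster before ubiquinone, read 3372 and 5010 (1.49-fold), and its other probe set read 1609 and 2487 (1.55-fold). Ndufs3 read 3458 and 4436 (1.28-fold higher in patUPD18).

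The NADH-binding end of complex I did not share that size of difference. Ndufv1, the flavin subunit, read 7130 in matUPD18 and 6926 in patUPD18, and its 3 probe sets had log2 ratios of 0.04, 0.14 and 0.19. Its partner Ndufv2 read 14105 and 16700, with 3 log2 ratios from -0.24 to -0.11. Ndufs1, the large iron-sulphur subunit, was the core gene read furthest higher in matUPD18, at 3490 against 2788 (1.25-fold).

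Accessory subunits of complex I, which surround the core and are needed for its assembly and stability, read lower in 21 of 27 genes. Ndufb5 read 4296 in matUPD18 and 7714 in patUPD18 (1.80-fold), but 1060 and 1142 by its other probe set (1.08-fold). Ndufb9 read 11045 and 19627 (1.78-fold), and 1511 and 1711 by its other measurable probe set (1.13-fold). These 2 genes thus had the furthest ratios by bright probe sets and small ones by dimmer probe sets. Ndufa8 read 2347 and 3950 (1.68-fold). Ndufb7 gave similar ratios by both of its probe sets, at 11414 and 16962 (1.49-fold) and at 744.3 and 1072 (1.44-fold).

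Fewer accessory subunits read higher in matUPD18. Ndufab1, the mitochondrial acyl carrier protein, read 1843 in matUPD18 and 1367 in patUPD18 (1.35-fold), its second probe set had a log2 ratio of 0.30, and the third read 245.4 and 245.5. Ndufb1 read 215.5 and 162.5, near the measurable limit, and Ndufa6 read 969.4 and 816.3 (1.19-fold). Ndufa10 showed how far probe sets of a gene can part: the brighter read 2898 and 2766, and the dimmer read 162.9 and 343.2. The latter is 2.11-fold higher in patUPD18 and the only 2-fold value in complex I. This dimmer probe set reached the measurable limit only in patUPD18, where it read higher. Ndufs4, a subunit often mutated in human complex I deficiency, had log2 ratios of -0.01 and -0.33 by its brighter probe sets, while the dimmest measurable one read 224.3 and 447.7. Ndufa12 and Ndufc2 each read lower in matUPD18 by all 3 measurable probe sets, with log2 ratios from -0.61 to -0.41 and from -0.56 to -0.38.

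The assembly factors, which help build complex I and are not part of it, leaned the same way, with a median log2 ratio of -0.29 over 10 probe sets. Ndufaf6 read 572.3 in matUPD18 and 961.9 in patUPD18 (1.68-fold), Ndufaf7 read 570.1 and 864.8 (1.52-fold), and Ndufaf2 read 704.5 and 954.9 (1.36-fold). Ndufaf8 had probe sets in opposite directions, at 1484 and 992.7 and at 230.9 and 282.1. Ndufaf3 read 224.2 and 211.6.

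**Figure D3:**
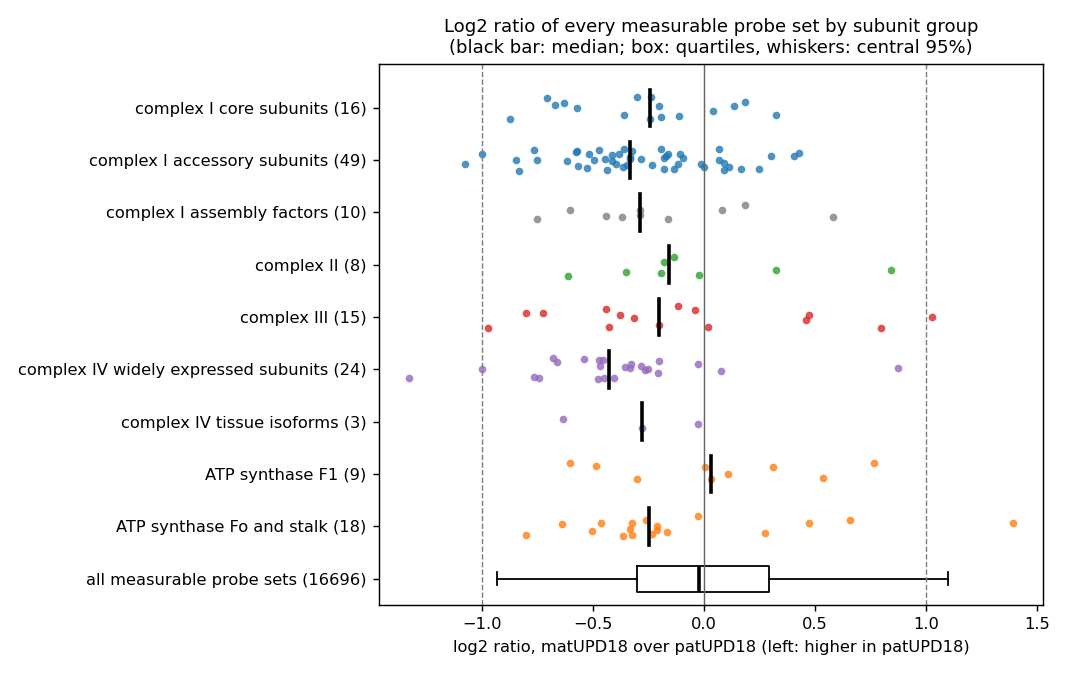
Log2 ratio (matUPD18 over patUPD18, horizontal) of each of the 152 measurable member probe sets, by subunit group with the number of probe sets in brackets, with the group median as a black bar and all 16696 measurable probe sets as a box. With the deposited scaling, which scaling to the hybridisation controls turns round, medians lie left of 0 in every group except ATP synthase F1 (0.03), and the widely expressed complex IV subunits lie furthest left (-0.43).

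Complex II, succinate dehydrogenase, is made of nuclear gene products alone and lies also in the citric acid cycle. Its 4 genes all read lower in matUPD18 by their brightest probe sets, but by little. Sdhb, the iron-sulphur subunit, read 5545 in matUPD18 and 7067 in patUPD18 (1.27-fold), and Sdhd, a membrane anchor, read 3170 and 3619 (1.14-fold). Sdhc, the other anchor, read 696.3 and 763.4, and in the opposite direction by its second probe set (629.8 and 503.3). Sdha, the flavin subunit, read 8325 and 8439 by its brightest probe set. Its other measurable probe sets read 5406 and 8258 (1.53-fold higher in patUPD18) and 214.5 and 119.5 (1.79-fold higher in matUPD18), so Sdha had no single direction. The complex II median over 8 probe sets was -0.16.

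Complex III, the cytochrome bc1 complex, held genes that read in both directions. Of its 9 genes, 6 read lower and 3 higher in matUPD18, and its 15 measurable probe sets had a median log2 ratio of -0.20. The small subunit Uqcr11 read 1855 in matUPD18 and 3232 in patUPD18 (1.74-fold). The hinge protein Uqcrh, which sits beside cytochrome c1, read 638.0 and 1055 (1.65-fold) and, by its second probe set, 422.7 and 829.9 (1.96-fold). Both Uqcrh probe sets were therefore low in matUPD18. The Rieske iron-sulphur protein Uqcrfs1 read 1748 and 2349 (1.34-fold), Cyc1, cytochrome c1 itself, 10693 and 13284 (1.24-fold), and Uqcrb, which helps form the ubiquinone site, 19512 and 25330 (1.30-fold). Uqcrq, another small subunit, read 1807 and 1854.

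Against these, both core proteins and one small subunit of complex III read higher in matUPD18. Uqcr10, a small membrane subunit, read 773.3 in matUPD18 and 379.9 in patUPD18 (2.04-fold), and its second measurable probe set read 196.0 and 112.9 (1.74-fold). That second probe set reached the measurable limit narrowly and only in matUPD18, where it read higher. The third was not measurable and had a log2 ratio of -0.16. The core proteins Uqcrc1 and Uqcrc2 hold the complex together on the matrix side. Uqcrc1 read 2927 and 2107 (1.39-fold) and Uqcrc2 read 16522 and 11992 (1.38-fold), with a second Uqcrc2 probe set at 5650 and 5580 (1.01-fold).

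Complex IV, cytochrome c oxidase, leaned most evenly. Of its 27 measurable probe sets, 25 read lower in matUPD18, with a median log2 ratio of -0.41. Its nuclear subunits ring a catalytic core encoded by mitochondrial DNA, and many of them come in widely expressed and tissue-restricted forms. Among the widely expressed genes, 10 of 11 read lower in matUPD18. Cox5a read 18309 in matUPD18 and 25347 in patUPD18 (1.38-fold), and its other 2 probe sets were 1.36-fold and 1.70-fold higher in patUPD18. Cox6a1 read 20159 and 27604 (1.37-fold), and 2672 and 4461 by its second probe set (1.67-fold). Cox6c read 7233 and 10495 (1.45-fold), and 6589 and 10553 by its second probe set.

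The same direction held for further complex IV subunits. Cox7a2 read 9689 in matUPD18 and 15296 in patUPD18 (1.58-fold) and by its second probe set 3322 and 4585 (1.38-fold). Cox7a2l, which helps join complexes III and IV into supercomplexes, had log2 ratios of -0.48 and -0.41 by its brighter probe sets and read 923.0 and 1846 by the dimmest. Cox6b1, on the face where cytochrome c docks, read 17184 and 21561 and then 1521 and 1915, with the same log2 ratio of -0.33 by both. Cox4i1 read 11241 and 14379 (1.28-fold) and Ndufa4, named for complex I but found to belong to complex IV, 1512 and 1837 (1.21-fold). Cox5b, of 5 measurable probe sets, had 4 with log2 ratios from -0.26 to -0.02 and 1 at 0.08.

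Cox8a and Cox7c stood at opposite ends of complex IV. Cox8a, a small membrane subunit, read 626.7 in matUPD18 and 1572 in patUPD18 by its brightest probe set (2.51-fold), but 842.2 and 971.0 by its other measurable one (1.15-fold). The third was not measurable, at 84.0 and 111.2. Cox7c read 407.2 and 222.3 (1.83-fold higher in matUPD18) and was the single complex IV gene read higher there. Its second probe set, not measurable, read 163.9 and 40.4, in the same direction.

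Tissue-restricted subunits of complex IV were mostly near or under the measurable limit on both arrays. Of 8 such genes 6 were not measurable, namely Cox4i2 (171.2 and 173.8), Cox6b2 (22.2 and 36.4), Cox7a1 (92.9 and 136.9), Cox7b2 (16.7 and 47.1), Cox8b (67.1 and 10.3) and Ndufa4l2 (46.0 and 50.5). Cox6a2, the heart and skeletal muscle form, was measurable by 1 of its 2 probe sets, at 299.9 in matUPD18 and 363.7 in patUPD18. Cox8c, known as a testis form, was measurable by both, at 720.0 and 1118 (1.55-fold) and at 359.2 and 365.2. A signal at this level without detection calls does not show that the gene is expressed. The other members under the limit were Ndufb4 (78.3 and 37.7) and Atp5l (109.8 and 41.7).

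ATP synthase was divided between probe sets of the same genes. Over 27 measurable probe sets, 17 read lower in matUPD18 and the median log2 ratio was -0.21. In the F1 head, where ATP is made, 3 of 9 probe sets read lower, with a median of 0.03, but by brightest probe set 3 of 5 genes did, with a median of -0.30. The catalytic subunit gene Atp5b read 8931 in matUPD18 and 8736 in patUPD18 (1.02-fold). Atp5c1, the rotating central stalk, read 15893 and 24133 (1.52-fold higher in patUPD18) by its brightest probe set and 595.9 and 350.8 (1.70-fold higher in matUPD18) by the other. Atp5d read 9780 and 13679 (1.40-fold), against 1448 and 1442 by its second probe set, and Atp5e read 798.9 and 643.5 (1.24-fold higher in matUPD18).

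The membrane part and outer stalk of ATP synthase leaned lower, with 14 of 18 probe sets and a median of -0.25, and by brightest probe set with 9 of 11 genes and a median of -0.26. The parts of the synthase thus differed over all probe sets and not by the brightest. Atp5j2 read 11296 in matUPD18 and 17592 in patUPD18 (1.56-fold), with its dimmer probe sets at log2 ratios of -0.21 and 0.28. Atp5k, whose promoter is shown above, was low in matUPD18 by all 3 of its probe sets, at 4122 and 5307, 3650 and 5027, and 2691 and 3808 (1.29-fold to 1.42-fold). Atp5o, which links stalk and head, was 1.20-fold and 1.74-fold higher in patUPD18 by its 2 probe sets. Atp5pb was 1.16-fold and 1.12-fold higher in patUPD18, Atp5j 1.25-fold and Atp5mpl 1.18-fold. Atp5h read 16906 and 21132 but 2682 and 1931 in the opposite direction by its second probe set.

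Atp5md, a small membrane subunit that aids dimer formation of the synthase, gave the furthest ratio towards matUPD18 of all members. It read 3432 in matUPD18 and 1308 in patUPD18 (2.62-fold), and it had no second probe set to set beside this value. The 3 genes for the proton-carrying c subunit, whose mature proteins are known to be identical, did not move together. Atp5g2 read 1233 and 781.7 (1.58-fold higher in matUPD18), Atp5g1 961.5 and 978.4, and Atp5g3 19509 and 24525 (1.26-fold higher in patUPD18).

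Probe sets of a gene read the same 2 RNAs, so their spread shows how far probes disagree and not the error of a difference between genotypes. Of the 46 member genes with at least 2 measurable probe sets, 27 read lower in matUPD18 by all of them, against 25.6% of all 4003 such genes, 3 read higher by all (24.8% of all genes) and 16 were mixed. Complex IV had 8 of 9 genes lower by all probe sets, complex I 12 of 19, complex III 3 of 5 with 2 higher by all, complex II 1 of 3 and ATP synthase 3 of 8 with 5 mixed. The pooled standard deviation of the log2 ratio between probe sets of a gene was 0.34 for members (115 probe sets of 46 genes) and 0.44 for all genes. Probe sets whose names end in _s_at or _x_at can match several transcripts, and many subunit genes have near-identical pseudogene copies, so their signals may be shared.

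**Figure D4:**
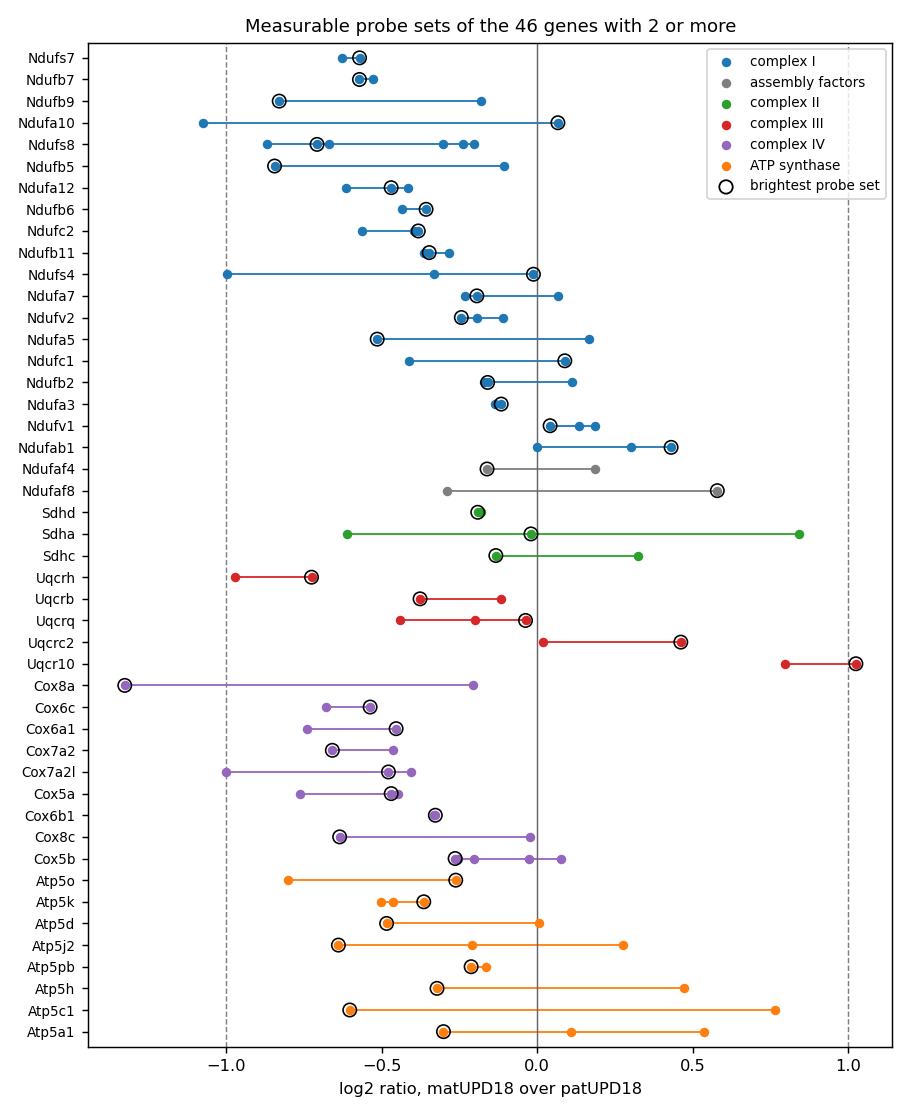
Log2 ratio (matUPD18 over patUPD18, horizontal) of each measurable probe set of the 46 member genes that have 2 or more, with the brightest probe set circled. With the deposited scaling, complex IV genes lie left of 0 except for 1 probe set of Cox5b, while Sdha, Atp5c1 and Ndufa10 spread over more than 1 log2 unit across 0.

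The 2 members on chromosome 18 itself, where both copies came from 1 parent, gave different readings. Ndufa2, a small accessory subunit of complex I, had 1 probe set, which read 3902 in matUPD18 and 6625 in patUPD18 (1.70-fold, log2 ratio -0.76). Atp5a1, which alternates with Atp5b in the ring of F1, read 17467 and 21522 (1.23-fold higher in patUPD18), then 12477 and 11570, then 609.0 and 419.3 (1.45-fold higher in matUPD18). Its 3 probe sets thus had log2 ratios of -0.30, 0.11 and 0.54. For scale, Impact, the paternally expressed gene of chromosome 18, read 328.4 and 2466 by its brightest probe set. Its other measurable probe set read 268.2 and 205.3, in the opposite direction.

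The 2 members on the X chromosome both read slightly lower in matUPD18. Ndufa1 read 17810 in matUPD18 and 19011 in patUPD18 (1.07-fold), and the 3 probe sets of Ndufb11 had log2 ratios from -0.36 to -0.28. Xist, the RNA of the inactive X chromosome, read 1568 in matUPD18 and 128.1 in patUPD18, and whether this bears on the X-linked members was not tested.

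Other mitochondrial genes leaned in part with the subunits. The ND5 probe set, for a complex I subunit encoded by mitochondrial DNA, read 7559 in matUPD18 and 9591 in patUPD18. Of 35 measurable electron carrier and assembly factor genes outside the rule, 24 read lower in matUPD18 (median -0.22), against 53.9% of all genes. Past 2-fold were 3, with 1 higher in matUPD18 (2.70% of all genes passed) and 2 in patUPD18 (1.78% passed). Sco2, a copper chaperone for complex IV, read 120.7 and 313.3 (2.60-fold), and Atpaf2, an F1 assembly factor, 87.7 and 208.2 (2.37-fold). Sco2 and Atpaf2 lay under the measurable limit in matUPD18 and passed the filter only through patUPD18, where they read higher. Cox15, of haem a synthesis, read 3639 and 1645 (2.21-fold higher in matUPD18). Of 22 genes of mitochondrial protein import, 20 read lower (median -0.25), as did 55 of 75 mitochondrial ribosomal protein genes (median -0.15), and none of either list passed 2-fold.

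Genes of fuel oxidation and of mitochondrial gene control did not lean. Of 16 citric acid cycle and pyruvate dehydrogenase genes, 8 read lower and 8 higher, with a median of 0.00. Citrate synthase, Cs, was the furthest lower at 10289 in matUPD18 and 14106 in patUPD18 (1.37-fold), and Pdhb the furthest higher at 6664 and 4349 (1.53-fold). Of 16 regulators, 8 read lower and 8 higher (median 0.01). The factors named above differed in direction. Gabpa read 3226 and 2194 (1.47-fold higher in matUPD18), Yy1 6477 and 5889 (1.10-fold higher in matUPD18) and Nrf1 1499 and 1971 (1.31-fold higher in patUPD18). Slirp, which stabilises mitochondrial messages, read 1174 and 2212 (1.89-fold higher in patUPD18). None of either list passed 2-fold. Cytosolic ribosomal protein genes, which also have high signals, read lower in 37 of 41 cases with a median of -0.30, close to that of the subunits. No test of the differences between these lists was possible.

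Markers of visceral endoderm and of primitive red cells passed 2-fold far more often than the subunits did, and those of cardiac muscle did not. For comparison, the 2-fold limit was passed by 2.70% of the 10484 measurable genes towards matUPD18 and by 1.78% towards patUPD18. Of the same genes, 53.9% read lower in matUPD18 by any size. Of 17 measurable visceral endoderm and yolk sac markers, 16 read higher in matUPD18 and 13 by at least 2-fold. All 17 reached the measurable limit in matUPD18 but only 7 did in patUPD18. The others passed only through the array where they read higher, so the filter partly set their direction and the count past 2-fold. The summed signal of all 22 on the array, measurable or not, was 46452 in matUPD18 and 13683 in patUPD18. Of 15 measurable primitive red cell markers, 14 read lower in matUPD18 and 7 by at least 2-fold, with summed signals of 52383 and 82055 over 17 genes. Of these 15, 13 reached the measurable limit in matUPD18 and 14 in patUPD18. Of 20 measurable cardiac muscle markers, a tissue rich in mitochondria, 7 read lower and none passed 2-fold (summed signals 55939 and 60899 over 21 genes). Of 9 trophoblast markers only Cdx2 and Plac1 were measurable, in opposite directions. Cdx2 read 217.9 in matUPD18 and 681.2 in patUPD18 (3.13-fold), and Plac1 404.3 and 241.5 (1.67-fold higher in matUPD18). No marker was at 0. In RNA of whole embryos, fewer cells of a type and less RNA per cell cannot be told apart, and the part of these cell types in the subunits' values was not tested.

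**Figure D5:**
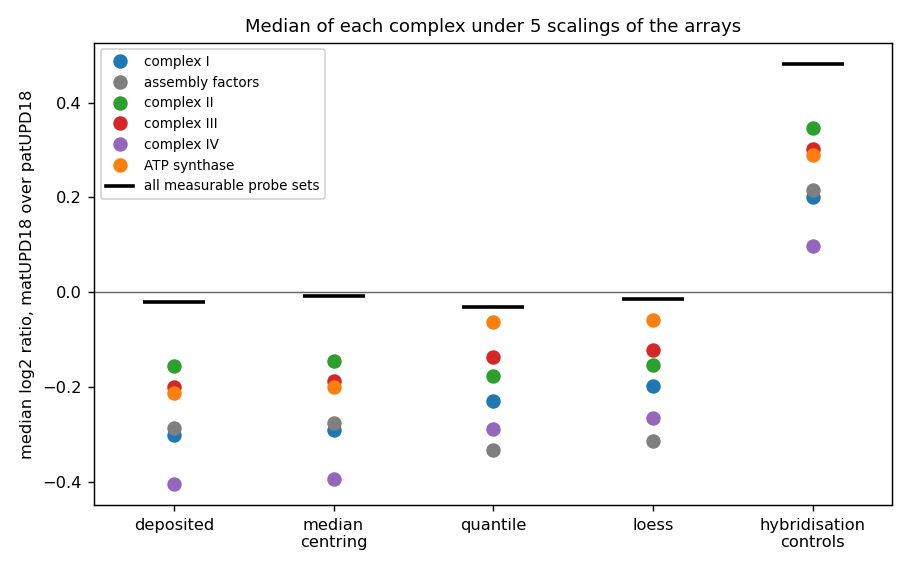
Median log2 ratio (matUPD18 over patUPD18, vertical) of each complex under the deposited scaling and 4 others (horizontal), with the median of all measurable probe sets as a black bar. Every complex lies below the bar under all 5 scalings, but all lie above 0 when the arrays are scaled to the hybridisation controls. Median centring and the hybridisation controls move points and bar alike, so only the quantile and loess scalings could change their order.

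The order of the complexes held in part across scalings. Median centring and scaling to the hybridisation controls move every ratio alike, so only quantile normalization and loess scaling could change the order. Complex IV had the lowest median of the 5 complexes under each scaling. It was -0.41 as deposited, -0.39 after median centring, -0.29 after quantile normalization, -0.27 after loess scaling and 0.10 with the hybridisation controls. The assembly factors, which are not part of a complex, had lower medians than complex IV after quantile normalization (-0.33) and loess scaling (-0.31). ATP synthase went from -0.21 as deposited to -0.06 after both quantile normalization and loess scaling, where it lay near the median of all probe sets (-0.03 and -0.02).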

How the data were processed

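One table of MAS5 signal intensities, 1 value per probe set and array, was used. The authors' deposited intensities were made with MAS5 and GCOS per the submitters' processing notes, and the sources used here give no versions. The RNA, per the labels' protocols, was amplified with a RiboAmp kit and labelled with biotin. The 3' over 5' signal of the Gapdh controls was 33.95 in matUPD18 and 36.4 in patUPD18. Both arrays thus leaned strongly to 3' ends, so probe sets distant from the 3' end can read low. The 2% trimmed mean was 500.003 and 500.004, so the arrays share a scale. Of 45101 probe sets, 34945 had 1 gene symbol, 932 several, 9160 none and 64 were controls. Symbols and chromosomes came from the platform annotation and RefSeq (GRCm38.p6), which matched all 91 member genes. Signals under an array's 40th percentile (84.2 and 82.5) were raised to it before log2. A gene's brightest probe set is that with the highest mean signal. Array noise could not be estimated without replicates, and the number of arrays limits the precision.

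Members and lists were chosen with earlier results of these data known. Named were probe sets past 2-fold, the 3 furthest genes each way per group, the gene of highest signal per complex, members on chromosomes 18 and X, paralogue families, genes with probe sets over 1 log2 unit apart in opposite directions, and others chosen after their values were seen. Alternatives were other scalings, floors, filters, probe set rules, a subunits-only set and a 1.5-fold threshold. The list of cytosolic ribosomal genes came in once the data had been seen. Scripts (matplotlib 3.10.9, statsmodels 0.14.6, scipy 1.17.1, numpy 2.4.6, pandas 2.3.3, Python 3.11.15) were tested on simulated data.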

Additional observations from a re-analysis of the deposited data

How the results depend on the processing

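Scaling to the hybridisation controls turned the direction of every median, to 0.22 for all members, 0.20 for complex I, 0.21 for assembly factors, 0.35 for complex II, 0.30 for complex III, 0.10 for complex IV and 0.29 for ATP synthase. Of 152 members, 9 were then at least 2-fold higher in matUPD18, where 2444 of all 16696 measurable probe sets passed. In patUPD18 0 members and 63 of all probe sets passed. Lower in matUPD18 were 34 members, against 12.1% of all probe sets. The medians of the members and complexes kept their sign under the other alternatives, except that ATP synthase read 0.070 without _x_at, _s_at and _a_at probe sets. There, 49 of 69 members read lower, against 48.5% of all 11901 probe sets. In that setting 1 member passed 2-fold each way, where 435 of all were higher in matUPD18 and 226 in patUPD18. Past 2-fold towards patUPD18 were 5 members after quantile normalization (366 of all 16696 probe sets) and 4 after loess scaling (347 of all 16695). Raising the floor to the 60th percentile left 1 (123 of all 16696). Asking for both signals above the filter also left 1 (102 of all 14495). By gene, 1 passed with 1 probe set per gene (187 of all 10484) and 0 with the median over probe sets (175 of all 10493). Towards matUPD18 the count past 2-fold was 1 after quantile normalization (497 of 16696) and 1 with the median over probe sets (231 of 10493). With 1 probe set per gene 65 of 83 read lower (53.9% of all genes), and with the median over probe sets 62 of 83 (52.4% of all genes). At 1.5-fold the counts were 7 in matUPD18 and 27 in patUPD18 (1902 and 1462 of all 16696). Of 84 probe sets followed singly, 46 changed sign with the hybridisation controls, 4 with loess scaling and 3 with quantile normalization. No paired analysis was possible because each genotype has 1 array. Dim probe sets vary most: the standard deviation of log2 ratios of other probe sets was 0.81 in the dimmest 10% and 0.35 in the brightest 10%.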
